A study of Mus musculus with 5 samples.

Results

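The unfolded protein response and the integrated stress response were examined through 34 genes in mouse liver tumours with and without added Prox1, a homeobox transcription factor of hepatocytes. The genes were chosen by name: 4 sensors and transducers, the hepatocyte factor Creb3l3, 8 genes of the ATF4 branch and 21 targets of the transcription factors XBP1 and ATF6. They are 34 of 55397 genes listed and of 17105 tested, and all 34 had enough reads to be tested. Every library came from a dissected liver tumour of a female C57BL/6N mouse. At 8 weeks of age, mice had received plasmids through the tail vein under high pressure, a route by which hepatocytes take up DNA. All mice carried Akt and the intracellular domain of NOTCH1 (NICD), both driven by the EF1a promoter and inserted by a Sleeping Beauty transposase. The NICD plasmid also supplied rtTA, the activator that doxycycline switches on. Prox1 OE mice (3 libraries) carried FLAG-tagged mouse Prox1 with GFP behind a doxycycline-responsive promoter, and Control mice (2 libraries) carried GFP alone behind the same promoter. Doxycycline hyclate in the diet (6.25%) began at day 21, so that Prox1 was induced from week 3 to week 4. Tumours were collected after this week or at a humane endpoint, and the labels do not say which applied to which tumour. The labels do not state that each library came from a separate animal, so that p-values measure the spread between these libraries, which may in part be technical. A dissected tumour also holds host cells that never took up a plasmid.

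Proteins that fold badly in the endoplasmic reticulum (ER) are sensed by IRE1, PERK and ATF6. IRE1 splices Xbp1 mRNA into the form that encodes an active transcription factor, ATF6 is cut free from the membrane to become one, and PERK phosphorylates the translation factor eIF2, which slows protein synthesis while ATF4 is made. XBP1 and ATF6 raise chaperones, disulfide isomerases and the machinery of ER-associated degradation (ERAD), and ATF4 raises amino acid genes and the death-linked factor CHOP (Ddit3). Hepatocytes secrete much of the protein in plasma and keep a large ER. Splicing, phosphorylation and cleavage are not visible in gene counts, so that only mRNA levels are described here.

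Values are normalised counts, that is reads divided by a size factor of the library. Total reads ran from 48740863 to 56629477 per library. A limma fit over all tested genes compared the groups on log2(normalised count + 1), a scale on which fold changes of low genes are understated, and a gene was called when its Benjamini-Hochberg (BH) adjusted p was under 0.05. Prox1 itself had 4153 and 4664 normalised counts in Control, and Prox1 OE replicates 1, 2 and 3 had 48089.8, 11113 and 8231, all above both Control values, with a BH-adjusted p of 0.061. The 8 hepatocyte markers (Alb, Ttr, Apoa1, Hnf4a, Tat, Cyp2e1, Cps1 and G6pc) and the 6 cholangiocyte markers were detected in every library. Detection alone does not check the tumour type of the labels. All 8 hepatocyte markers were higher in Prox1 OE (median log2 fold change 1.75), where they summed to between 4.01% and 5.56% of normalised counts, against 1.52% and 2.37% in Control, although 0 of 8 were called without Control replicate 1 and 3 without Prox1 OE replicate 2. Of the 6 cholangiocyte markers, 5 were lower (median -1.56), as were 5 of 6 proliferation genes, and 4 of 5 T cell markers were higher, from a summed 124 to 158 normalised counts in Control to between 297 and 441. Over all genes tested, 17.1% were called higher and 16.2% lower. Without Control replicate 1, 0 proliferation genes were called, and 0 T cell markers were called without either Control library or without Prox1 OE replicate 2. In bulk tumour RNA, fewer cells of a type and less RNA per cell cannot be told apart.

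Most of the 34 genes did not pass the test. Creb3l3, Trib3, Herpud1, Edem1, Derl1 and Derl2 were higher in Prox1 OE, Eif2ak3 was lower, and 27 genes were not called. The 7 called genes made 20.6% of the 34, against 33.3% of all genes tested (17.1% higher and 16.2% lower), and the difference between these shares was not tested. Log2 fold changes were positive for 25 and negative for 9 genes with a median of 0.20, against -0.02 over all genes. The groups did not overlap for 15 of the 34, against 63.3% of all genes tested. This direction depends on the scaling. Under scaling by the total count of each library, which lowers the median of all genes to -0.44, the median of the 34 became -0.23, and only Creb3l3 was called higher while 8 genes were called lower. That scaling called 1475 of all 17105 genes tested higher and 6833 lower. In that view the 34 genes together took 0.777% and 0.76% of normalised counts in Control and 0.562%, 0.669% and 0.689% in Prox1 OE. Creb3l3 (higher) and Eif2ak3 (lower) were called in the main fit and in each of 16 alternatives, and no other gene of the 34 was called in all of them. Without either Control library, Creb3l3 and Eif2ak3 were the only calls among the 34, in fits that assume the lone Control library to vary as the Prox1 OE libraries do and that called 1158 (without replicate 1) or 2270 (without replicate 2) of all genes in place of 5702.

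**Figure D1:**
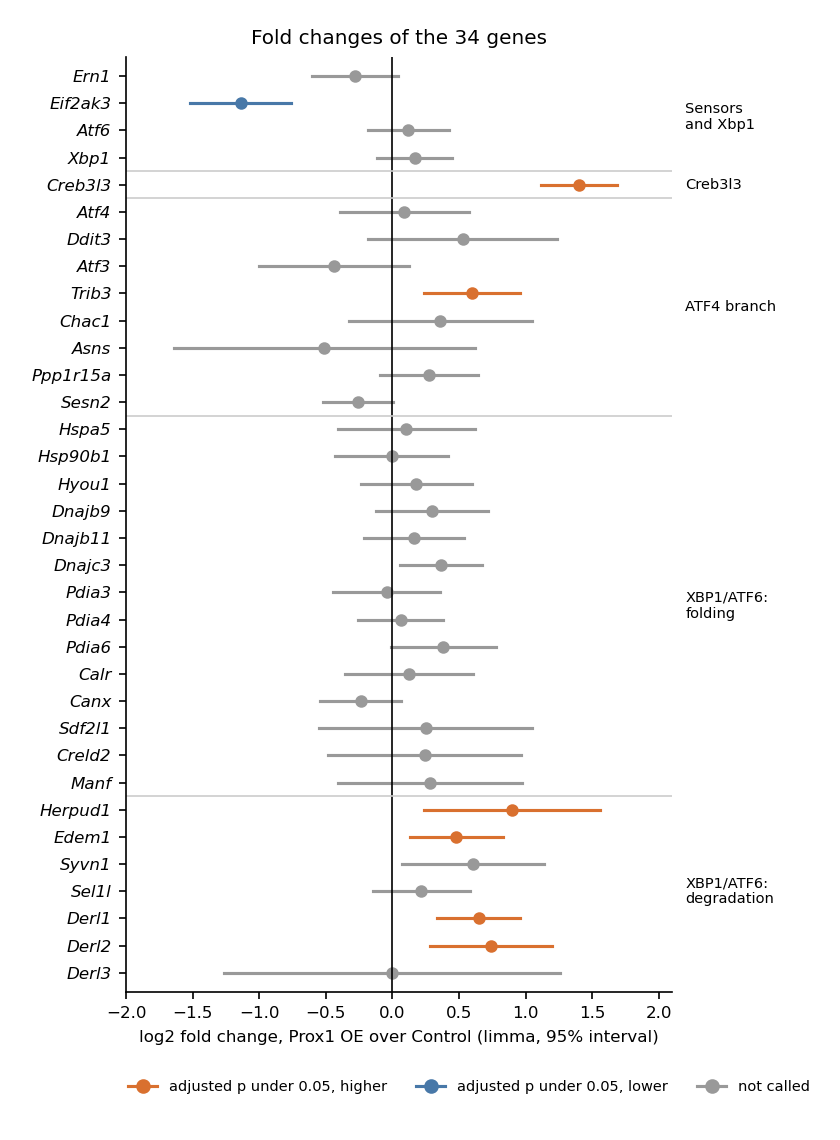
Log2 fold change of each of the 34 genes, Prox1 OE over Control, from limma (points) with 95% intervals (lines), grouped by role. Orange marks the 6 genes called higher, blue Eif2ak3, called lower, and grey the 27 not called. The largest shifts are Creb3l3 at 1.40 and Eif2ak3 at -1.14. Of the orange genes, Creb3l3 alone stays called under total-count scaling.

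Eif2ak3 (mm10, chromosome 6, 70844515 to 70905245, plus strand) encodes PERK, the sensor that phosphorylates eIF2. It had 5407 and 5241 normalised counts in Control and 2992, 2149.9 and 2199 in Prox1 OE replicates 1, 2 and 3. The 3 Prox1 OE libraries lay far below both Control libraries, and replicate 1 was the nearest to them. The means were 5324 ± 117 (SD, n = 2) and 2447 ± 473 (SD, n = 3), a log2 fold change of -1.14 (SE 0.16, 95% interval -1.52 to -0.76, BH-adjusted p 0.0035). The Prox1 OE level was thus 0.454 times that of Control (0.349 to 0.591).

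The other sensors did not pass the test. Ern1, which encodes IRE1, had 2196 and 2351 normalised counts in Control and 1988, 1611 and 2037 in Prox1 OE. All 3 Prox1 OE libraries lay below both Control libraries, but the log2 fold change of -0.28 did not pass (BH-adjusted p 0.15). Under total-count scaling, where the median of all genes was -0.44, Ern1 was called lower at -0.71 (limma, BH-adjusted p 0.0049). Atf6 had 3707 and 4181 in Control and 4692, 3805 and 4398 in Prox1 OE, and the groups overlapped (log2 fold change 0.12, BH-adjusted p 0.51). Xbp1, whose gene count does not tell the spliced from the unspliced form, had 9372 and 10587 in Control and 10945, 10735 and 11889 in Prox1 OE. The libraries of Xbp1 did not overlap, yet stood close together, with a log2 fold change of 0.17 and an interval of -0.12 to 0.45 (BH-adjusted p 0.32).

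Creb3l3 (mm10, chromosome 10, 81084324 to 81098874, minus strand) encodes CREB-H, a transcription factor of liver that is held in the ER membrane and cut free as ATF6 is. It had 3826 and 4016 normalised counts in Control and 9384, 10579.7 and 11208 in Prox1 OE. The 3 Prox1 OE libraries lay close together and well above Control, at 10391 ± 926 (SD, n = 3) against 3921 ± 134 (SD, n = 2). This was a log2 difference of 1.40 (SE 0.12, BH-adjusted p 0.0018), or 2.64-fold with an interval of 2.17 to 3.22. Creb3l3 is made mainly by hepatocytes and intestine, and the 8 hepatocyte markers were higher in the same libraries. Their part in the Creb3l3 difference was not tested. Of 7 relatives and processing enzymes, Creb3l1 was lower (883 ± 67.8, SD, n = 2, against 485 ± 46, SD, n = 3, log2 fold change -0.86, BH-adjusted p 0.0058), and so was Mbtps2, the membrane protease that releases ATF6 (log2 fold change -0.55, BH-adjusted p 0.032). Creb3 was higher (log2 fold change 0.38, BH-adjusted p 0.039). Of the 7, 1 was thus called higher and 2 lower, against 17.1% and 16.2% of all genes tested. Under total-count scaling 0 genes of this list were called higher and 5 lower, against 1475 and 6833 of all 17105 genes tested. The Creb3 call was also lost with no filter on low genes, without the variance trend, with the replicate block and without any 1 library other than Prox1 OE replicate 1. Mbtps2 was lost in these same settings other than the replicate block. Without Control replicate 1, 0 of the 7 were called.

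**Figure D2:**
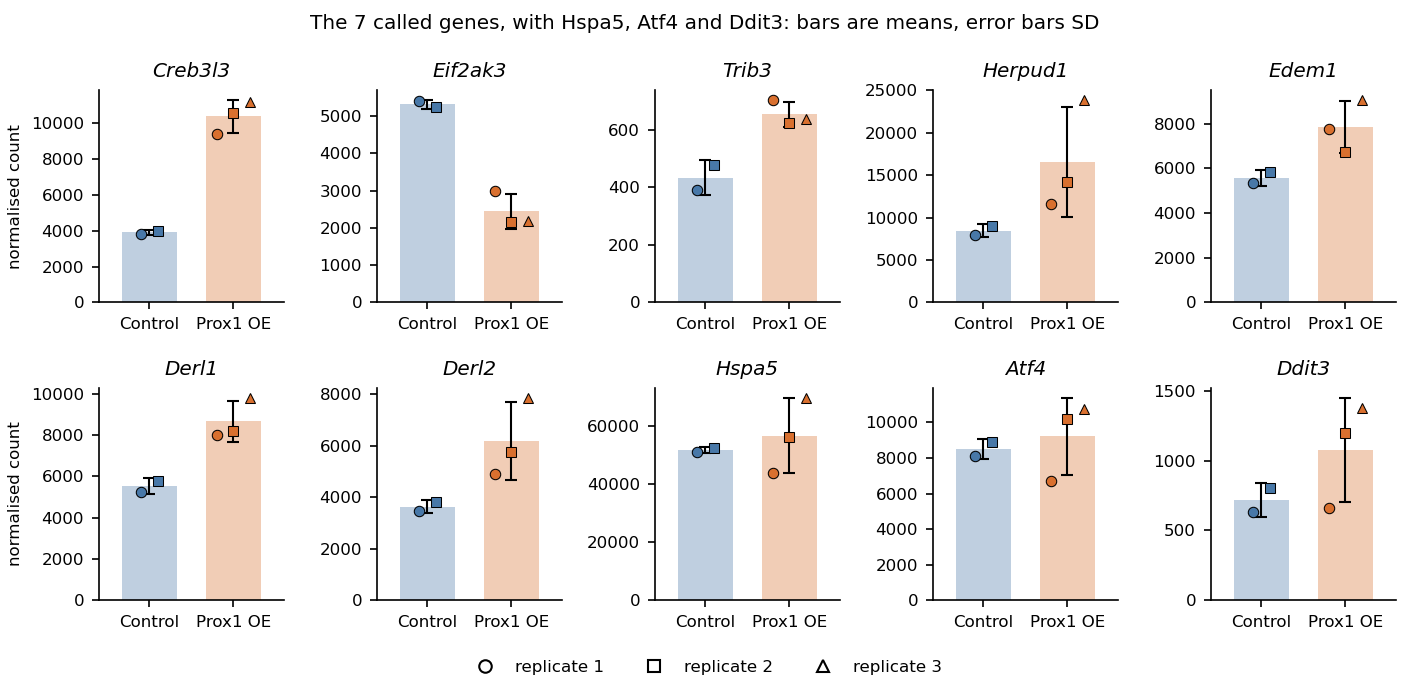
Normalised counts in every library for the 7 called genes and for Hspa5, Atf4 and Ddit3, which were not called. Bars are group means, error bars the SD (n = 2 Control, n = 3 Prox1 OE), and symbols the replicate numbers. Control and Prox1 OE libraries do not overlap for the 7 called genes, whereas Prox1 OE replicate 1 lies below at least 1 Control library for Hspa5, Atf4 and Ddit3.

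In the ATF4 branch 1 of 8 genes (12.5%) was higher and none lower, against 33.3% of all genes tested called in either direction. The log2 fold changes of the branch had a median of 0.18 and ran from -0.51 to 0.60. The median was -0.25 under total-count scaling, against -0.44 over all genes. There no gene of the branch was called higher and 2, Atf3 and Sesn2, were called lower, against 1475 and 6833 of all 17105 genes tested. Trib3 (mm10, chromosome 2, 152337422 to 152344032, minus strand), a pseudokinase induced by ATF4 and CHOP, had 391 and 476 normalised counts in Control and 703, 622 and 637 in Prox1 OE. Prox1 OE exceeded Control in each library, at 654 ± 43.5 (SD, n = 3) against 434 ± 60.3 (SD, n = 2). This was a log2 difference of 0.60 (SE 0.15, BH-adjusted p 0.024). It lost the call under total-count scaling (adjusted p 0.48), without Control replicates 1 or 2 (0.24 and 0.074) and without Prox1 OE replicate 2 (0.054).

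Atf4 itself, whose protein is controlled mostly by translation, had 8115 and 8883 normalised counts in Control and 6734, 10183 and 10745 in Prox1 OE. Replicate 1 fell below Control and the others above it, so that the log2 fold change of 0.09 (SE 0.21) did not pass (BH-adjusted p 0.76). Ddit3, which encodes CHOP, had 633 and 805 in Control and 662, 1199 and 1376 in Prox1 OE. Replicates 2 and 3 lay above both Control libraries and replicate 1 between them (log2 fold change 0.53, BH-adjusted p 0.21, and 0.01 without replicate 1). A further Ensembl entry named Ddit3 was at 0 in every library and was not tested.

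The remaining genes of the branch differed in how the libraries ranked. Asns, the asparagine synthetase that ATF4 induces when amino acids are short, had 401 and 529 normalised counts in Control and 659.5, 283 and 181 in Prox1 OE. Chac1, which breaks down glutathione, had 246 and 272 in Control and 489.8, 312 and 239.6 in Prox1 OE. For both genes Prox1 OE replicate 1 was the highest of all 5 libraries and replicate 3 the lowest, the reverse of Ddit3 within Prox1 OE. Neither passed the test, with log2 fold changes of -0.51 (SE 0.48, BH-adjusted p 0.45) for Asns and 0.36 (SE 0.29, BH-adjusted p 0.38) for Chac1. Atf3, a stress-induced repressor, had a log2 fold change of -0.44 (BH-adjusted p 0.20) and Sesn2, an antioxidant and nutrient sensor, of -0.26 (BH-adjusted p 0.11), with all Prox1 OE values of Sesn2 (1315 to 1419.5) below its Control values of 1599 and 1681. Ppp1r15a, the phosphatase subunit GADD34 that reverses eIF2 phosphorylation, had 909 and 1158 in Control and 1098, 1329.8 and 1303 in Prox1 OE, and its groups overlapped (log2 fold change 0.27, BH-adjusted p 0.22).

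Of a further 25 ATF4 target genes, 6 were higher, 9 lower and 10 not called, with a median of -0.22, against 17.1% higher and 16.2% lower among all genes tested. Cth, which makes cysteine from cystathionine, rose 2.27 on the log2 scale, from 1298 ± 519.6 (SD, n = 2) to 6155 ± 1743 (SD, n = 3) normalised counts (BH-adjusted p 0.0029). Atf5, a sister factor of ATF4, had 11569 and 14573 in Control and 23466, 35405 and 38062 in Prox1 OE (log2 fold change 1.28, BH-adjusted p 0.0068). Stc2, a secreted glycoprotein, fell by 1.68 on the log2 scale (BH-adjusted p 0.028) and Slc7a5, the large neutral amino acid transporter, fell by 1.61 (BH-adjusted p 0.0032). Scaled by total counts, 5 of these genes were higher and 13 lower, and without Control replicate 1 these counts were 3 and 3. The Stc2 call was lost with no filter on low genes, without the variance trend, without either Control library and without Prox1 OE replicate 2, and Atf5 was lost without Control replicate 1. In the other arms of amino acid and translation control, 2 of 13 cytosolic tRNA synthetase and tRNA export genes were called higher, against 17.1% of all genes tested. They were Tars (log2 fold change 0.56, BH-adjusted p 0.017) and Aars (0.42, BH-adjusted p 0.029), and 1 of 13 eIF2 kinase and eIF2 genes, Eif2b4 (0.53, BH-adjusted p 0.023), was higher. None of these 3 was called without either Control library or called higher under total-count scaling, and Aars was also lost with the replicate block. Aars and Eif2b4 were lost without Prox1 OE replicate 2 and without replicate 3, all 3 without the variance trend, and Aars with no filter on low genes. Total-count scaling called 4 genes of the first list and 5 of the second lower. Over all 17105 genes tested, that scaling called 1475 higher and 6833 lower.

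Of 7 death genes linked to CHOP, 1 was higher and 3 lower, against 17.1% and 16.2% of all genes tested. Pmaip1 (NOXA) fell by 1.76 on the log2 scale, with means of 467 ± 65.2 (SD, n = 2) and 138 ± 27.5 (SD, n = 3) and a BH-adjusted p of 0.0028. Tnfrsf10b, the TRAIL receptor, fell by 0.93 (BH-adjusted p 0.0038) and Casp12 also fell. Bbc3 (PUMA) was higher, at 739 ± 46.9 (SD, n = 3) against 503 ± 23.5 (SD, n = 2, log2 fold change 0.55, BH-adjusted p 0.020). When libraries were scaled by total counts, 5 of the 7 were called lower and none higher, against 6833 and 1475 of all 17105 genes tested. Bbc3 was not called without either Control library, where the calls were Pmaip1 alone (without replicate 1) or Pmaip1 and Tnfrsf10b (without replicate 2). Bbc3 and Casp12 were also lost without Prox1 OE replicate 2, and Casp12 without the variance trend.

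**Figure D3:**
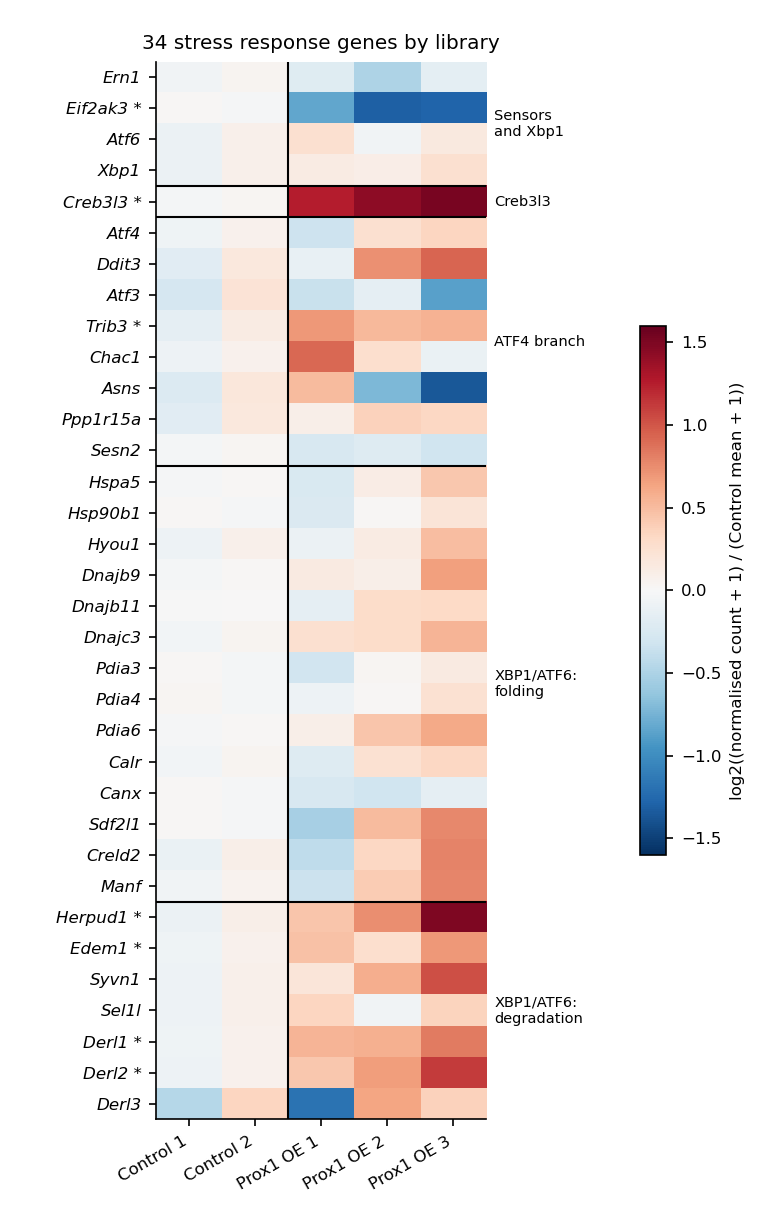
The 34 genes in each of the 5 libraries, as log2 of the normalised count plus 1 over the Control mean plus 1 (blue below, red above), with asterisks at the 7 called genes. Within Prox1 OE, most XBP1 and ATF6 targets are bluest or palest in replicate 1 and reddest in replicate 3, and several, such as Sdf2l1, Creld2 and Manf, are blue in replicate 1 and red in the other two.

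The 21 XBP1 and ATF6 targets were taken by role. Of the 7 that act in ER-associated degradation 4 were called higher, and of the 14 that act in folding and ER quality none was called, at a BH-adjusted p under 0.05, against 17.1% of all genes tested called higher. The 4 degradation calls fell to 2 with no filter on low genes and to 1 without the variance trend. At an unadjusted p under 0.05, 1 of the 14 passed (Dnajc3), and edgeR called 0 and DESeq2 1, again Dnajc3. Without Prox1 OE replicate 1, 6 of the 14 folding genes were called higher beside 4 of the 7 degradation genes, and without either Control library 0 of both were called. Over all 17105 genes tested, the fit without Prox1 OE replicate 1 called 3738 higher, in place of 2933 in the main fit. In the main fit the median log2 fold change was 0.60 for the degradation genes (range 0.00 to 0.90) and 0.17 for the folding genes (range -0.24 to 0.38). The 7 degradation genes together had 30027 and 33577 normalised counts in Control and 42628, 44758 and 63906 in Prox1 OE, which is non-overlapping, whereas the 14 folding genes had 268581 and 272726 against 237107, 294815 and 339505. In the fit scaled by total counts, the median of all genes was -0.44, with 1475 of 17105 genes called higher and 6833 lower. There the degradation genes kept a positive median (0.17) with 0 called, and the folding median was -0.26 with 4 called lower. The difference between the roles was not tested.

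Herpud1 (mm10, chromosome 8, 94386438 to 94395377, plus strand), a membrane protein that organises the degradation complex, changed most among the targets. It had 7901 and 9024 normalised counts in Control and 11557, 14141 and 23854 in Prox1 OE replicates 1, 2 and 3. All 3 lay above Control, and replicate 3 stood far above the others. The means were 8463 ± 794 (SD, n = 2) and 16517 ± 6484 (SD, n = 3), a log2 fold change of 0.90 (SE 0.28, BH-adjusted p 0.045), and the log2 fold change was 0.60 without replicate 3. The call was lost under total-count scaling (adjusted p 0.12), with no filter on low genes (0.082), without the variance trend (0.10), without Control replicates 1 or 2 (0.23 and 0.13) and without Prox1 OE replicate 2 (0.094).

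The derlins form the channel through which misfolded proteins leave the ER. Derl1 (mm10, chromosome 15, 57869502 to 57892448, minus strand) had 5230.1 and 5778 normalised counts in Control and 7995, 8191 and 9798 in Prox1 OE. Derl2 (mm10, chromosome 11, 71007164 to 71019841, minus strand) had 3449.8 and 3819.5 in Control and 4902, 5777 and 7868 in Prox1 OE. All Prox1 OE libraries lay above both Control libraries for both genes, and replicate 3 was the highest. The log2 fold changes were 0.65 (SE 0.13, BH-adjusted p 0.011) for Derl1 and 0.74 (SE 0.20, BH-adjusted p 0.026) for Derl2. Both calls were lost under total-count scaling (0.17 and 0.14), without Control replicate 1 (0.12 and 0.17) and without Control replicate 2 (0.058 and 0.096), and Derl2 was also lost without the variance trend (0.071) and without Prox1 OE replicate 2 (0.068). Derl3, the least abundant of the 34 genes per kilobase of exon, had 112 and 197 in Control and 67.5, 239.5 and 200.2 in Prox1 OE, with a log2 fold change near 0 (-0.002, SE 0.54, interval -1.26 to 1.26, BH-adjusted p 0.998).

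Edem1 (mm10, chromosome 6, 108828641 to 108859356, plus strand), which trims the sugars of misfolded glycoproteins and marks them for degradation, had 5332 and 5842 normalised counts in Control and 7749, 6721 and 9065 in Prox1 OE. The groups did not overlap (log2 fold change 0.48, SE 0.15, BH-adjusted p 0.043), but the call was lost under total-count scaling (adjusted p 0.78), with no filter on low genes (0.075), without the variance trend (0.095), with the replicate block (0.093), without Control replicates 1 or 2 (0.27 and 0.14) and without Prox1 OE replicates 1 or 3 (0.056 and 0.089). Syvn1, the ubiquitin ligase HRD1 of the same pathway, had 2773 and 3089.7 in Control and 3349, 4371 and 6017 in Prox1 OE. Its Prox1 OE libraries also lay above both Control libraries, yet the log2 fold change of 0.60 (SE 0.23) did not pass (BH-adjusted p 0.078). DESeq2 called it (adjusted p 0.031), as did limma without Prox1 OE replicate 1 (0.014). Its partner Sel1l had 5229 and 5826 in Control and 7008, 5317 and 7104 in Prox1 OE, which overlapped (log2 fold change 0.22, BH-adjusted p 0.31).

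Another 14 degradation and quality control genes showed 5 higher and none lower, with a median of 0.27, against 17.1% of all genes tested called higher. Edem2, a relative of Edem1, had 3109 and 3586 normalised counts in Control and 5074, 5703 and 5826 in Prox1 OE (log2 fold change 0.73, BH-adjusted p 0.0057), and the ubiquitin ligase gene Rnf5 had 3000.4 and 3055 against 4280.2, 4962 and 5466 (log2 fold change 0.69, BH-adjusted p 0.0084). Os9 and Ubxn4 were also among those called higher. Under total-count scaling none of the 14 was called higher and 4 were called lower, and without Control replicates 1 or 2 the calls fell to 0 and 1. Os9 and Ubxn4 were also lost without the variance trend, with the replicate block and without Prox1 OE replicate 3, and Os9 without Prox1 OE replicate 2. Over all 17105 genes tested, total-count scaling called 1475 higher and 6833 lower.

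The chaperones Calr, Hspa5 and Hsp90b1 and the disulfide isomerase Pdia3 were the most abundant of the 34 genes. Per kilobase of exon, Calr led with a Control mean of 17641 normalised counts, followed by Hspa5 (12233), Hsp90b1 (12063) and Pdia3 (10299.6), and the Prox1 OE means of 19473, 13384, 12113 and 10082 kept this order. Hspa5 (mm10, chromosome 2, 34771970 to 34777547, plus strand), the master chaperone BiP that also restrains the 3 sensors, had 50973 and 52490.3 normalised counts in Control and 43876, 56185 and 69737 in Prox1 OE. Replicate 1 lay below both Control libraries and replicates 2 and 3 above, so that the log2 fold change of 0.10 had an interval of -0.41 to 0.62 (BH-adjusted p 0.74). Hsp90b1 (GRP94) had 49095 and 48179.9 in Control and 41256.5, 49104 and 56159 in Prox1 OE, with a log2 fold change of -0.01 and an interval of -0.43 to 0.42 (BH-adjusted p 0.99). The large chaperone Hyou1 had 7211 and 8045 against 7164, 8387 and 10712 (log2 fold change 0.18, BH-adjusted p 0.46).

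No cochaperone or disulfide isomerase among the listed XBP1 and ATF6 targets passed the test. Dnajc3 (P58IPK), a cochaperone that also inhibits PERK, had 8406 and 8889 normalised counts in Control and 10339, 10562 and 12619.7 in Prox1 OE. Its groups did not overlap, and the log2 fold change of 0.36 (SE 0.13) just missed the threshold (BH-adjusted p 0.070). Dnajb9 had 2172 and 2249 in Control and 2451, 2358 and 3479 in Prox1 OE (log2 fold change 0.30, BH-adjusted p 0.23), and Dnajb11 had a log2 fold change of 0.16 (BH-adjusted p 0.47). Of the isomerases, which form disulfide bonds, Pdia6 had 14566 and 15032 in Control and 15848, 20159.9 and 22514 in Prox1 OE (log2 fold change 0.38, BH-adjusted p 0.12), while Pdia3 and Pdia4 had log2 fold changes of -0.04 and 0.06 (BH-adjusted p 0.87 and 0.74). Calnexin (Canx), a lectin chaperone of glycoproteins, had 23853 and 23253 in Control and 19780.1, 18818 and 21369 in Prox1 OE, the 1 target with every Prox1 OE library below Control (log2 fold change -0.24, BH-adjusted p 0.19), and its partner Calr had a log2 fold change of 0.12 (BH-adjusted p 0.67).

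The small luminal proteins Sdf2l1, Creld2 and Manf were lowest in Prox1 OE replicate 1. Manf, a secreted ER stress protein, had 7970.04 and 8669 normalised counts in Control and 6535, 11014 and 14308 in Prox1 OE. Sdf2l1 had 1674 and 1631 in Control and 1145, 2353 and 2812 in Prox1 OE, and Creld2 had 2739.9 and 3134 in Control and 2214, 3687 and 5093 in Prox1 OE. For all 3 genes, replicate 1 was the lowest of the 5 libraries and replicates 2 and 3 were the highest. Their log2 fold changes of 0.24 to 0.28 did not pass (BH-adjusted p 0.49 to 0.60), and all 3 were called higher without Prox1 OE replicate 1.

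Most of the targets ranked in this way within Prox1 OE. Among the 21 XBP1 and ATF6 targets, Prox1 OE replicate 1 was the lowest Prox1 OE library for 17 and replicate 3 was the highest for 20. In the ATF4 branch the lowest library was replicate 1 for 3 genes, replicate 2 for 1 and replicate 3 for 4. Over all genes tested the lowest library was replicate 1 for 35.4%, replicate 2 for 32.6% and replicate 3 for 32.0%, and the highest was replicate 3 for 34.5%. Without replicate 1, the count of called genes went from 6 higher and 1 lower to 13 higher and 2 lower (median of the 21 targets 0.42), with Ddit3, Dnajb11, Dnajc3, Pdia6, Sdf2l1, Creld2, Manf and Syvn1 added upward, Asns added downward and Edem1 lost, and without replicate 3 to 5 higher and 1 lower (median 0.03). Over all 17105 genes tested, calls also went from 5702 to 7491 without replicate 1. The library that was lowest for these targets, replicate 1, was the one with the most Prox1 (48089.8 normalised counts) and a hepatocyte marker sum of 4.42%, between those of replicates 2 (4.01%) and 3 (5.56%). Whether Prox1 level or hepatocyte content has a part in this ranking was not tested, with 3 libraries. Plasma cells have a secretory ER rich in these proteins, and their part in the target values was not tested. The summed plasma cell markers were 429 to 434 normalised counts in Control and 983 to 1455 in Prox1 OE, with Igkc, Igha and Ighm called higher (none without Control replicate 1), Jchain at most at 29.5 and Mzb1 at 18.9, and the defining receptor gene Tnfrsf17 at 0 in 4 of 5 libraries. Pancreatic acinar markers summed to 426 to 486 in Control and 853 to 1021 in Prox1 OE, nearly all from Cela1, with 2 of 4 tested called higher and 1 lower and Cpb1 at 0 in every library.

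Promoters of the members were searched for the letters that these factors are known to bind, in RefSeq windows from 250 bases before to 50 bases after the start (GRCm38.p6, the sequence of mm10). A window was at hand for 30 of the 34 members, all but Atf6, Hyou1, Manf and Derl1. The ER stress response element (ERSE: CCAAT, any 9 bases, then CCACG) was matched on either strand in 9 of the 18 XBP1 and ATF6 targets with a window, against 0.119% of all 32851 windows, and in 0 of 8 genes of the ATF4 branch. The shorter ERSE-II (ATTGG, any base, then CCACG) was in Herpud1 and Dnajb11, against 0.0365% of windows. The XBP1 core TGACGTG was in Hspa5 alone of the 30, against 2.01% of windows. The CARE element of ATF4 (TGATG, any base, AA) was in Asns, Atf3, Chac1 and Trib3 of the 8 ATF4 branch genes and also in Herpud1, against 3.97% of windows. ERSE and ERSE-II share the letters CCACG, and no member held both. Genes of both branches were listed as known parts of these responses. Their shares above all windows may thus follow from that choice and were not tested.

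The sites below run 5′ to 3′ on the strand of the gene with 12 bases to each side, and capitals mark the letters of the motif. The CARE matches of Herpud1, Atf3 and Chac1 lie on the opposite strand, so that their capitals mark the reverse complement of the motif. Hspa5 and Herpud1 are shown as the reference gene and the most changed gene of the targets, and Syvn1, Canx, Asns, Atf3 and Chac1, chosen after the search, show the same letters in genes with other changes.
Hspa5 ERSE (chr2:34772013-34772055, plus strand): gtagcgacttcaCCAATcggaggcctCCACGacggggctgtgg
Syvn1 ERSE (chr19:6046520-6046562, plus strand): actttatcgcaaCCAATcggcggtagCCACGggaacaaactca
Canx ERSE (chr11:50325788-50325830, minus strand): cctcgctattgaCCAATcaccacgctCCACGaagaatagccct
Herpud1 ERSE-II (chr8:94386365-94386399, plus strand): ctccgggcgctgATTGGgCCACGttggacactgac
Hspa5 XBP1 core (chr2:34771921-34771951, plus strand): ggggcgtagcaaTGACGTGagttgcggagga
Herpud1 CARE (chr8:94386305-94386336, plus strand): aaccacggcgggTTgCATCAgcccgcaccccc
Asns CARE (chr6:7693213-7693244, minus strand): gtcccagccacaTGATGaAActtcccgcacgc
Atf3 CARE (chr1:191183424-191183455, minus strand): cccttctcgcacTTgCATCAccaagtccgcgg
Chac1 CARE (chr2:119351037-119351068, plus strand): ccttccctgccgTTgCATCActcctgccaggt

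Genes with the same letters differed in their change. Of the 9 targets with ERSE none was called, with log2 fold changes from -0.24 (Canx) to 0.60 (Syvn1) and a median of 0.12. The 11 targets with ERSE or ERSE-II had a median of 0.16 with 1 called (Herpud1), and the 7 with a window and neither had a median of 0.25 with 2 called (Edem1 and Derl2). Over all genes tested 17.1% were called higher and 16.2% lower, and differences between these small motif groups were not tested. Herpud1, the most changed target, was the only one of the 30 genes with both an ERSE-II and a CARE match. Of the 5 genes with CARE, Herpud1 and Trib3 were higher and Asns, Atf3 and Chac1 were not called, and the match in Trib3 lay after the start. Scaled by total counts, neither Herpud1 nor Trib3 was called. Eif2ak3, Creb3l3 and Atf4 held none of the 4 motifs in these windows.

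**Figure D4:**
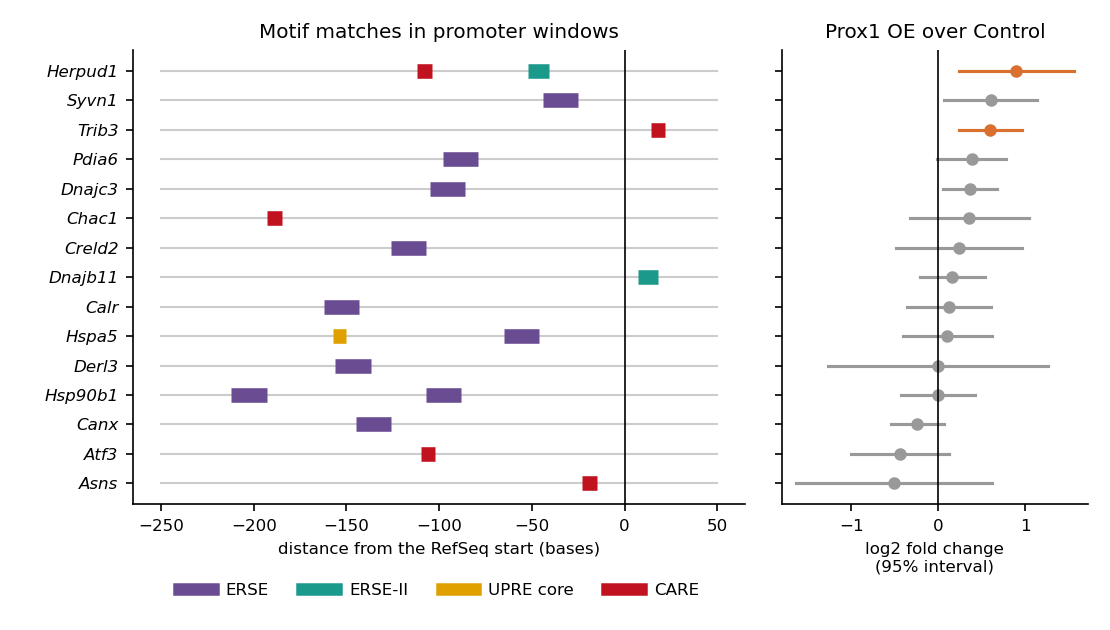
Left, motif matches (coloured bars) in the promoter windows of the 15 genes with a match, by distance in bases from the RefSeq start (vertical line), ordered by fold change. Right, the log2 fold change of the same genes, Prox1 OE over Control, with 95% intervals from limma, orange where called higher and grey where not called. ERSE bars (purple) stand beside changes on both sides of 0, and the called genes Herpud1 and Trib3 carry ERSE-II (teal) or CARE (red) bars.

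Other steps of the secretory pathway were described by 4 lists. Log2 fold changes were positive for 13 of 17 translocon and signal peptide genes (median 0.16), 8 of 10 oxidative folding genes (0.21), 8 of 10 COPII coat genes (0.20) and 4 of 9 oligosaccharyltransferase genes (-0.003), and most of these genes were not called. Over all genes tested, 8376 of 17105 log2 fold changes were positive, and 17.1% of genes were called higher and 16.2% lower. Under total-count scaling, which lowered the median of all genes to -0.44, the 4 list medians were -0.28, -0.22, -0.23 and -0.43 in the same order. In that fit 4, 2, 3 and 5 genes of the lists were called lower, against 6833 of all 17105 genes tested. In the translocon and signal peptide list 1 of 17 genes was higher, the channel subunit Sec61b (4603 and 4619.7 against 5554, 7437 and 8160.4 normalised counts, log2 fold change 0.59, BH-adjusted p 0.034), and DESeq2 called 5 and the fit without Prox1 OE replicate 1 called 6. The Sec61b call was lost with no filter on low genes, without the variance trend and without any 1 library other than Prox1 OE replicate 1. Of 9 oligosaccharyltransferase genes, which attach sugars, Tusc3 and Stt3b fell by 0.79 and 0.45 on the log2 scale (BH-adjusted p 0.0064 and 0.025). In oxidative folding, the disulfide isomerase gene P4hb rose from 55011 and 67148 to 102164, 112786 and 125262 normalised counts (log2 fold change 0.89, BH-adjusted p 0.014) and the oxidase gene Ero1lb by 0.74 (BH-adjusted p 0.024), while its relative Ero1l fell by 1.36 (BH-adjusted p 0.0027). Of 10 COPII coat genes, Sar1b rose by 1.04 (BH-adjusted p 0.0034) and Sec24b fell by 0.50 (BH-adjusted p 0.017). When libraries were scaled by total counts, Sec61b and Ero1lb were no longer called and P4hb and Sar1b still were. Without either Control library, Sar1b was the 1 gene of these 4 lists called higher, Ero1l stayed called lower and Stt3b and Sec24b lost their calls, and Tusc3 was lost without Control replicate 1. Stt3b was also lost with the replicate block and without Prox1 OE replicate 3, Ero1lb without the variance trend, and Ero1lb and Sec24b without Prox1 OE replicate 2.

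Chaperones of other compartments were set beside those of the ER. Of 11 cytosolic heat shock genes 1 was called, against 33.3% of all genes tested called in either direction. It was Hspa1a, which fell by 2.15 on the log2 scale (BH-adjusted p 0.014). Hspa1a shares near-identical sequence with Hspa1b (log2 fold change -1.22, not called), so that the split of reads between them is uncertain. The Hspa1a call was lost without Control replicate 1 and without Prox1 OE replicate 2, and Hspa1b was called lower with the replicate block and without Prox1 OE replicate 3. Of 9 mitochondrial chaperone and protease genes 6 were higher and none lower, with a median of 0.53, against 17.1% of all genes tested called higher. Trap1 had 5916 and 5774 normalised counts in Control and 11859.9, 9587 and 11023 in Prox1 OE (log2 fold change 0.88, BH-adjusted p 0.0037), and the protease gene Clpp had 1852 and 2038 against 2759, 3404 and 3979 (log2 fold change 0.78, BH-adjusted p 0.012). Of 9 mitochondrially encoded genes, 5 were also higher (0 without Control replicate 1), and their part in this was not tested. In the fit scaled by total counts, and likewise without either Control library, 1 of the 9 mitochondrial chaperone genes was called higher. Total-count scaling called 7 of the 11 cytosolic heat shock genes lower, and over all 17105 genes tested it called 6833 lower and 1475 higher.

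**Figure D5:**
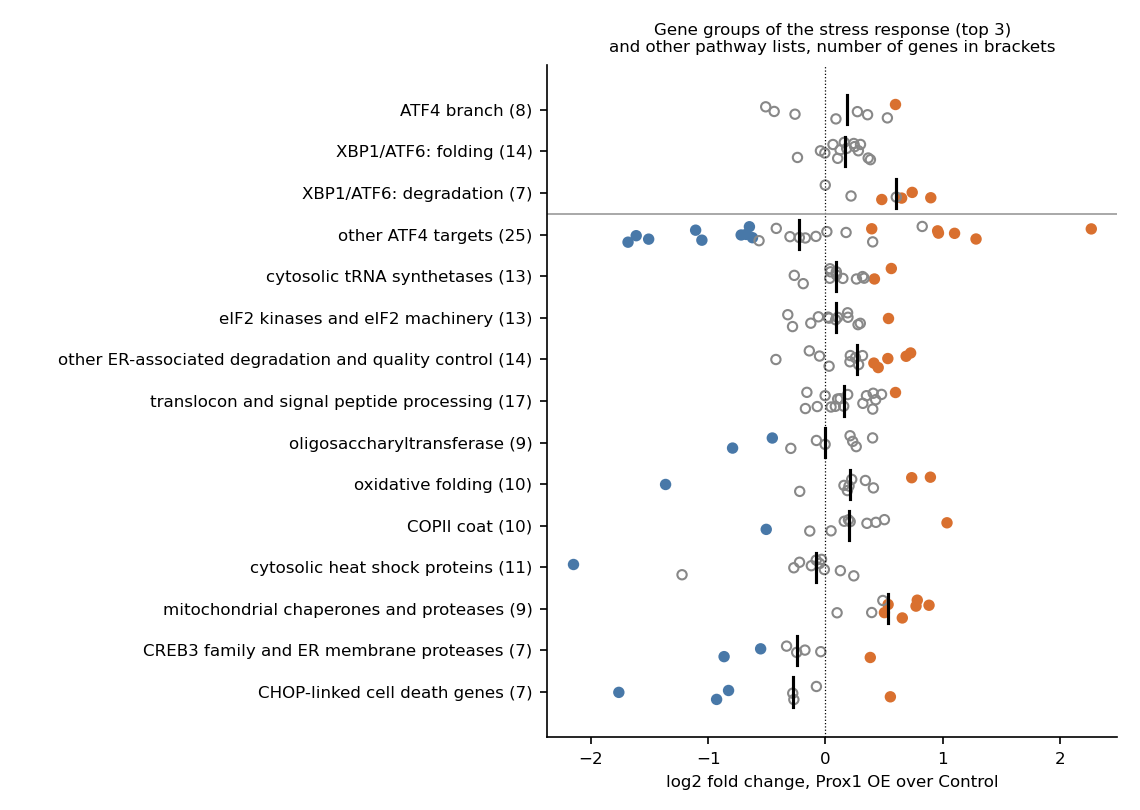
Log2 fold changes of single genes, Prox1 OE over Control, in the groups of the stress response (above the line) and in 12 other pathway lists, with the number of genes in brackets. Filled points passed a BH-adjusted p of 0.05 (orange higher, blue lower), open points did not, and black bars are medians. Degradation genes lie mostly right of 0 and other ATF4 targets on both sides. Medians of the ATF4 branch, the folding genes and the other degradation genes fall below 0 under total-count scaling, where the median of all genes is -0.44.

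Markers of other cells and of handling were also counted. Of 6 macrophage and Kupffer cell markers 1 was higher (Clec4f) and 1 lower (Cd14), but log2 fold changes were positive for 5 (median 0.56), and DESeq2 and the fit with the replicate block each called 4 higher (Clec4f, Lyz2, Cd68 and Csf1r). Their sum was 20576 and 23674 normalised counts in Control and between 26537 and 43385 in Prox1 OE. Of 5 endothelial markers Stab2 was higher, and of 5 stellate cell and fibroblast markers Lrat was higher and Col1a1 and Col3a1 were lower. None of 4 neutrophil markers tested was called by limma, edgeR or DESeq2, and 0 passed at an unadjusted p under 0.05. Among 11 immediate early genes, which rise with handling, Zfp36 and Dusp1 were higher and Ier2 and Ier3 lower. Under total-count scaling 0 of the 11 were called higher and 6 lower. The endothelial list then had 1 higher and 3 lower, as did the stellate cell and fibroblast list. That scaling called 1475 of all 17105 genes tested higher and 6833 lower. Without Control replicate 1, Clec4f, Stab2 and Col3a1 were no longer called and Ier3 was the 1 immediate early gene called. Over all genes tested 17.1% were called higher and 16.2% lower, and none of these lists was tested against the stress genes.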

How the data were processed

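RNA was sequenced from 5 Akt/Notch liver tumours, 2 Control and 3 Prox1 OE, grouped by the titles in the labels. Libraries were made by the authors with the dUTP protocol and sequenced as paired ends, and reads were mapped to mm10 with STAR. The counting tool is not given in the sources used here. The deposited values are a signal per gene, namely reads divided by the authors' DESeq2 size factor of the library. Dividing by what 1 read was worth gave whole reads for 100% of values, within 0.01. The floor of 3 reads corresponds to 2.46 to 3.54 normalised counts and covers counting error only. No column of samples was left unassigned (0 columns). A table of the authors' own DESeq2 comparison, with fold changes and p-values, was not used.

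Of 55397 genes listed, 28705 had a read, and the 17105 with a mean of 10 normalised counts or more were tested. The test was limma 3.58.1 (R 4.3.3), on log2(normalised count + 1) with the mean-variance trend, two-sided and with Benjamini-Hochberg adjustment over all tested genes at 0.05. There was no covariate, following the study. Symbols, coordinates and exon lengths came from GENCODE for GRCm38 (99.5% of identifiers matched), and promoter windows from RefSeq for GRCm38.p6. Replicates were distinct libraries, with a chi-square per degree of freedom between 39.6 and 125.5.

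The member genes, their roles, the pathway lists and the markers were chosen with earlier results of these data known. Beside the 34 members, up to 2 genes per direction of each pathway list are named, by largest change among called genes with a mean of at least 50 and groups that do not overlap. Other genes in the text were picked with their values in view. Values of 1 further gene, counted in its pathway list, are not reported here. The alternatives comprised TMM, upper-quartile and total count scaling, pseudocounts of 0.1 and 10, no filter, a minimum mean of 50, limma with no trend, DESeq2 1.42.0 and edgeR 4.0.16 (quasi-likelihood) on the recovered reads, the replicate block and each library left out in turn. The procedure was tested on simulated counts.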

Additional observations from a re-analysis of the deposited data

How the results depend on the processing

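Of 544 values of the 34 genes under 16 alternatives, 462 kept their direction and their side of the threshold, 26 lost a call, 17 gained one and 39 changed sign. TMM and upper-quartile scaling, both pseudocounts, a mean of at least 50 and edgeR gave 6 genes higher and 1 lower as in the report, DESeq2 gave 8 and 1, no filter 4 and 1, and limma without the trend 3 and 1. The total count as library size gave 1 (Creb3l3) and 8 (Ern1, Eif2ak3, Atf3, Sesn2, Hsp90b1, Pdia3, Pdia4 and Canx). It moved the median of the ATF4 branch to -0.25 and of the XBP1 and ATF6 targets to -0.19, and turned the sign of Atf6 (-0.31), Xbp1 (-0.26), Atf4 (-0.34), Chac1 (-0.070), Ppp1r15a (-0.16), Hspa5 (-0.33), Hyou1 (-0.25), Dnajb9 (-0.13), Dnajb11 (-0.27), Dnajc3 (-0.067), Pdia4 (-0.37, called lower), Pdia6 (-0.048), Calr (-0.31), Sdf2l1 (-0.18), Creld2 (-0.19), Manf (-0.15) and Sel1l (-0.21). By its construction it divides each library by all its reads. Under it the median of all genes was -0.44, and 17.8% of all calls were higher, in place of 51.4%. Hsp90b1 turned to 0.011 with TMM, 0.023 with edgeR and 0.013 with DESeq2, and Derl3 to 0.015 with TMM, 0.0089 with a pseudocount of 10, 0.15 with edgeR and 0.14 with DESeq2. The cause was not tested.

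The labels tie no Control library to a Prox1 OE library. Same-numbered libraries had deviations from their group means that correlated at 0.14 (replicate 1) and 0.02 (replicate 2), and share only a number. The fit with the replicate block leaves out Prox1 OE replicate 3, which has no partner, and called 5 genes higher and 1 lower, without Edem1 (5246 of all genes). It moved the median of the XBP1 and ATF6 targets to 0.030 and turned the sign of Atf4 (-0.036), Hspa5 (-0.059), Pdia4 (-0.029), Sdf2l1 (-0.0096) and Creld2 (-0.037).

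With 1 library left out, 1 to 13 genes were called higher (1 without either Control library, 13 without Prox1 OE replicate 1), 1 to 2 lower, and 1158 to 7491 of all genes. The median of the XBP1 and ATF6 targets ran from 0.030 to 0.42. Log2 fold changes that changed sign ran from -0.036 to 0.30 for Atf4, -0.059 to 0.28 for Hspa5, -0.11 to 0.11 for Hsp90b1, -0.14 to 0.087 for Pdia3, -0.029 to 0.14 for Pdia4, -0.0096 to 0.64 for Sdf2l1, -0.037 to 0.56 for Creld2 and -0.41 to 0.56 for Derl3. The mean of every one of the 34 genes over the libraries was above the floor of 3 reads, and whether depth limits any call was not tested.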
